A study of Mus musculus with 7 samples.

Results

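The Ifi200 genes are a family of interferon-inducible DNA sensors that lie side by side on mouse chromosome 1. They were described here in RNA from sorted, lipid-laden microglia of young and old mice after stroke. Members were the rows whose gene symbol was one of Mndal, Mnda, Ifi203, Ifi204, Ifi206, Ifi207, Ifi211, Ifi213, Ifi214 and Aim2. Of these 10 symbols, 9 had a row in every file, out of 50686 gene rows. Mnda matched no row, and the RefSeq gene table gives that name as a synonym of Ifi211. The members were chosen by their old against young values in these same libraries, so their own age differences are given as a description, with standard errors and without p-values for single genes, and how many passed each threshold is given beside the share of all genes.

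The cells were Bodipy+ microglia, that is, CD11b/CD45-gated cells whose neutral lipid droplets took up the dye Bodipy. All mice were C57BL/6 males that went through 45 min of middle cerebral artery occlusion, an intraluminal model of transient ischemic stroke, and were studied at day 4 of reperfusion. Neither group received an experimental drug. The young group held 4 libraries (14C, 18C, 23C and 29C) from mice of 3 to 4 months, and the old group 3 libraries (2posI, 3posI and 4posI) from mice of 21 to 22 months. The comparison asks how age changes fat-laden microglia, and it was made in males beside a comparison in females, not analysed here, because estrogens can act on microglia and brain lipids. No uninjured and no Bodipy-negative group was analysed here, so age and the response to ischemia cannot be told apart.

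Each library held between 36574083 and 53002386 assigned reads. Of 17559 genes tested, 141 passed the threshold (adjusted p under 0.05, edgeR), 100 of them higher and 41 lower in old mice. Old 3posI stood apart. The summed CPM (counts scaled to library size) of 8 monocyte markers was 2035 in 3posI, 77.5 in 2posI, 110.5 in 4posI and 18.4 to 86.3 in young libraries. The summed CPM of 7 border-associated macrophage markers was 1522 in 3posI, 543 and 171 in the other old libraries and 129 to 470 in young ones. The 10 microglial markers summed to 11176 CPM in 3posI against 21747 to 32406 in the other 6 libraries, so the labelled cell type was seen in every library and was lowest there. Neutrophil markers (8 genes) summed to 266 to 284 CPM in old and 172 to 413 CPM in young libraries, and dendritic cell markers (8 genes) to 23.8 to 66.6 CPM in old and 11.7 to 19.4 CPM in young libraries. B cell, T and NK cell, astrocyte, oligodendrocyte, neuronal and vascular marker sums of the old libraries overlapped those of the young, and of the defining markers Pax5 was at 0 throughout. Some sums rested on 1 gene: Cd4 gave 10.16 of the 10.45 CPM of T and NK markers in young 23C. Cd8a (0.26 to 0.52 CPM in old, at most 0.02 in young), Trac and Nkg7 were higher in every old library than in any young one. Cd3e, Cd3d, Cd4, Ncr1 and Klrb1c overlapped. Of 7 T and NK genes tested 6 had positive estimates (median log2 fold change 3.32). Of 6 neutrophil genes, a sum that was mostly Csf3r, 5 had (median 0.93). In both lists 0 passed the threshold. The part of other cells in the results below was not tested. Results that 3posI moves are therefore also given without it.

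PYHIN proteins combine a pyrin domain, which binds other pyrin domains, with a HIN-200 domain, which binds DNA. Most of the family is switched on by type I interferon, and in macrophages and microglia its members read DNA that has reached the cytosol or nucleus. AIM2 assembles an inflammasome with the adaptor ASC (Pycard) and caspase-1, which matures IL-1β and IL-18, whereas IFI204, the mouse relative of human IFI16, signals through STING towards interferon production.

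The genes filled 680.9 kb, from 173350879 to 174031810 of chromosome 1 (GRCm38, GENCODE vM21). Aim2 (173350879 to 173466040, plus strand) stood at one end, followed on the minus strand by Ifi206 (173468485 to 173491041), Ifi214 (173519717 to 173535957), Ifi213 (173566283 to 173599274), Ifi207 (173723427 to 173741747) and Ifi204 (173747293 to 173766943). The far end held Mndal (173849126 to 173942491), whose span encloses Ifi211 (173896345 to 173913046) and overlaps Ifi203 (173920407 to 173942672), all on the minus strand. The libraries were not stranded, so reads in overlapping exons cannot be ascribed by strand. Another 5 PYHIN genes of the locus had rows in the files and were analysed beside the members: Ifi209 and Ifi208 on the plus strand, and Ifi203-ps, Ifi202b and Ifi205 on the minus strand.

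**Figure D1:**
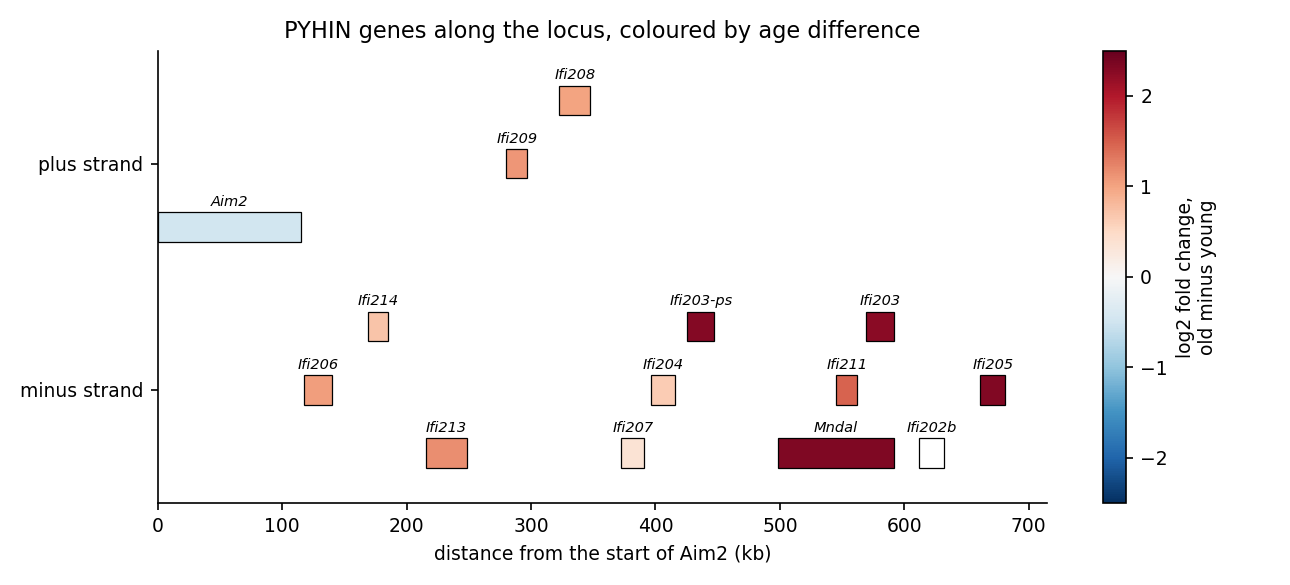
Each box is 1 PYHIN gene along the locus, by distance from the start of Aim2 (kb) and by strand, and the colour is the log2 fold change between old and young libraries. Estimates above 2 were those of Mndal (2.33), Ifi205 (2.31), Ifi203-ps (2.30) and Ifi203 (2.26), all in the right-hand part, Aim2 at the left end was lower in old (-0.47), and Ifi202b (white) was not tested.

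The promoters show what the members share apart from the readout. RefSeq windows (GRCm38.p6, from 250 bases before to 50 bases after each start) were found for 8 of the 9 members, Ifi204 having no entry. They were searched on both strands for the core of the interferon-stimulated response element (ISRE), GAAANNGAAA, a DNA element found in promoters of interferon-inducible genes. The core was present in 7 of the 8 members, in 9 of the 12 PYHIN genes that had a window, and in 3.99% of all 27025 genes (3.44% of all 32851 windows). The window of Aim2 held no match to these letters. The following 50-base stretches, written in the direction of transcription with the ISRE core in capitals, show how alike the elements and their flanks are.
Mndal, chr1:173880194-173880243, minus strand: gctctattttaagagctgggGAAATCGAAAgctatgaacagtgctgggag
Ifi203, chr1:173942498-173942547, minus strand: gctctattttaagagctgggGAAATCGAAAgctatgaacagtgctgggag
Ifi207, chr1:173741821-173741870, minus strand: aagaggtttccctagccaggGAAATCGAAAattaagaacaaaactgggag
Ifi211, chr1:173913054-173913103, minus strand: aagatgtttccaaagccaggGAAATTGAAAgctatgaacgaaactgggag
Ifi206, chr1:173491329-173491378, minus strand: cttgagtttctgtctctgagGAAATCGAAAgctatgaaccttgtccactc
Ifi213, chr1:173599316-173599365, minus strand: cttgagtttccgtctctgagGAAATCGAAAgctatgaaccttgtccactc
Ifi214, chr1:173536007-173536056, minus strand: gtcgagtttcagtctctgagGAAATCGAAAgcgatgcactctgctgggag

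The stretches of Mndal and Ifi203 were the same in all 50 bases, and those of Ifi206 and Ifi213 differed in 1. Ifi207 and Ifi211 differed in 8 of 50, and Mndal differed from Ifi206 in 21. The element began 35 to 79 bases before the gene start in these 7 members. The exact version GAAATCGAAA occurred in 16 of the 32851 windows (0.049%), and 7 PYHIN genes of the locus held it, while GAAATTGAAA, the version of Ifi211 and Ifi205, occurred in 38 (0.116%). The gamma-activated site TTCNNNGAA was in 9.55% of all genes (8.3% of all windows) and in 0 of the 8 members with a window. These are matches of letters and not measured binding.

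Transcripts of these genes are also alike, which bears on every count given here. The reads were about 50 bases long, so the share of each gene's 50-base words that recur in another gene's transcripts was counted. Of Ifi211, 72.8% of words were shared with other genes, 44.7% with Ifi205, 30.1% with Ifi204 and 17.1% with Mndal. The share was 25.6% for Ifi206, 20.02% for Ifi204, 18.6% for Mndal, 15.6% for Ifi213, 14.6% for Ifi214, 12.4% for Ifi203 and 7.29% for Ifi207. Aim2 shared 0.74% of its words with genes outside the family and 0% within it. Ifi206 shared 9.8% of its words with Gm18752 and Ifi207 2.62% with Gm18445, both outside the family. The other members shared 1.0% or less with genes outside it. Sharing fell into blocks: Ifi206 with Ifi213 and Ifi208, Ifi214 with Ifi209, and a larger block of Ifi211, Ifi204, Mndal, Ifi203, Ifi207, Ifi205 and Ifi203-ps, in which each shared words with some of the others but not with all. RSEM, the program the authors used, divides a read that fits several transcripts, and the outcome is a fractional count. None of the 63 member values (9 genes in 7 libraries) was whole within 0.001, whereas 66.2% of the 152341 values above 0 over all genes were whole. Aim2 was fractional in all 7 libraries too, so a fraction alone does not show reads shared within the family. The share over all genes includes scarce genes such as Ifi202b, with at most 3 reads, whose 4 values above 0 were all whole.

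**Figure D2:**
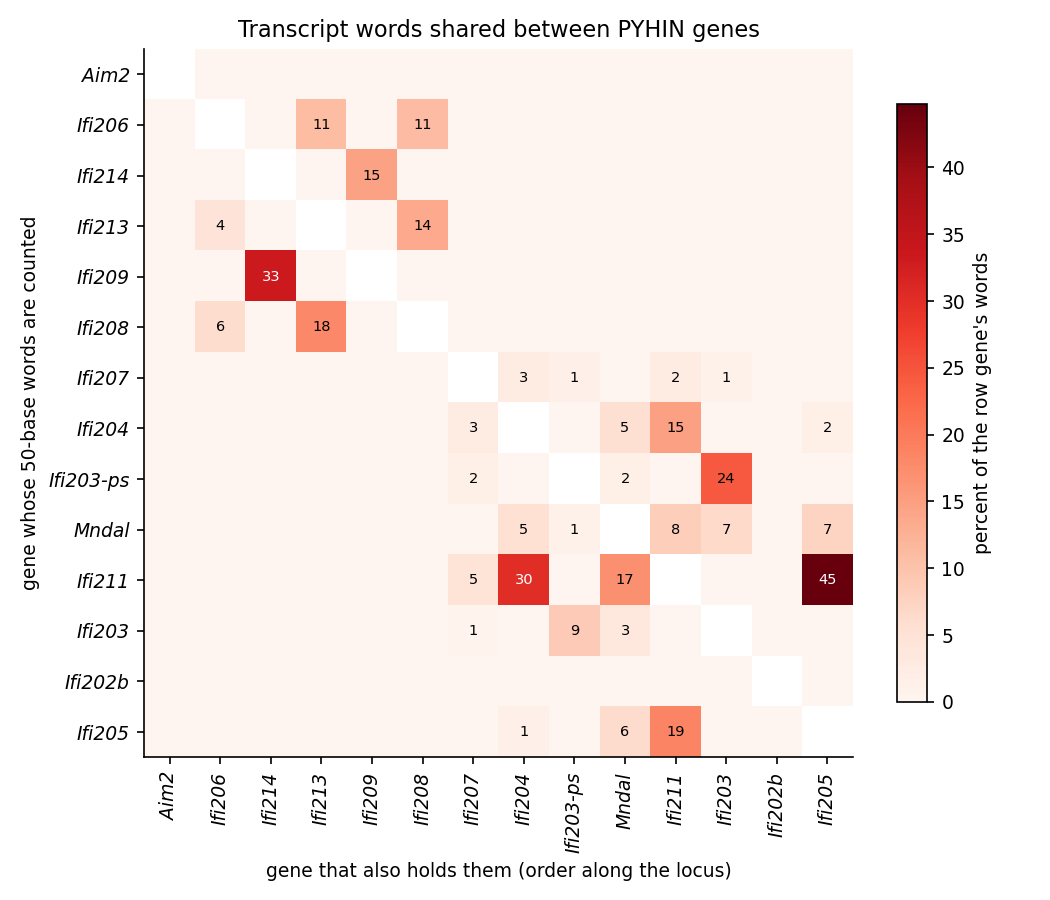
Each cell gives the percent of the 50-base transcript words of the row gene that also occur in transcripts of the column gene, with genes in their order along the locus. Ifi211 shared 44.7% with Ifi205 and 30.1% with Ifi204, Ifi209 shared 33% with Ifi214, and the rows of Aim2 and Ifi202b were empty.

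Of the 9 members, 8 had a higher and 1 (Aim2) a lower estimate in old mice, and the median log2 fold change was 1.04. Over all tested genes 48.8% had a log2 fold change above 0, and the median was -0.01. A log2 fold change above 1 was found in 5 members and in 7.51% of all genes. No member passed the threshold in either direction in edgeR (0.803% of all genes did, and 0.57% were higher in old mice) or in limma-voom (0.558% higher). At an unadjusted p under 0.05 there were 6 members higher and 1 lower, against 10.1% and 8.79% of all genes. In DESeq2 3 members passed (Mndal, Ifi203 and Ifi211), against 4.26% of genes called higher. Without 3posI, 7 of the 9 members had a positive estimate in edgeR, beside 48.1% of all genes. Their median was then 0.78, and 3 were above 1. At an unadjusted p under 0.05 there were then 2 higher and 0 lower, beside 3066 of 17375 genes in either direction. Since the members were picked for this contrast, these counts say nothing about the family beyond the choice. In bulk RNA, a change in the number of expressing cells and in RNA per cell cannot be told apart.

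Mndal, the MNDA-like member, was measured at 5.80, 2.06, 7.20 and 2.95 CPM in young 14C, 18C, 23C and 29C, and at 12.9, 47.7 and 7.49 CPM in old 2posI, 3posI and 4posI. The old libraries all lay above the young ones (as in 8.67% of all genes), but the lowest old value exceeded the highest young value by a small margin and 3posI was far above the rest. The mean was 4.50 ± 2.41 CPM (SD, n = 4) in young and 22.7 ± 21.8 CPM (SD, n = 3) in old libraries, a log2 fold change of 2.33 (SE 0.65), or 1.17 (SE 0.47) without 3posI.

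Ifi203, a nuclear member of the family, had 6.19, 2.28, 7.14 and 1.83 CPM in young and 12.8, 42.8 and 7.21 CPM in old libraries, in the same order. The pattern was like that of Mndal, whose span it overlaps in part. The promoter stretches of these genes have the same sequence but lie at separate places. Its log2 fold change was 2.26 (SE 0.67), and 1.19 (SE 0.54) without 3posI. On the TPM scale, which also divides by transcript length, both genes overlapped between the ages: Mndal at 2.84 to 9.36 TPM in young and 7.86 to 44.2 TPM in old libraries, and Ifi203 at 1.01 to 6.28 TPM and 4.73 to 27.4 TPM. The effective length that RSEM gave Ifi203 ran from 978 to 2361 bases in young and from 1985 to 2609 bases in old libraries, and a fit with that length as an offset gave a log2 fold change of 1.73.

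Ifi211, which has also been called Mnda, was the member whose ages were apart on both scales. It had 30.8, 16.3, 45.8 and 57.4 CPM in young and 79.6, 157.5 and 75.01 CPM in old libraries. No old library reached down to the young range. Means were 37.5 ± 17.9 CPM (SD, n = 4) and 104.0 ± 46.4 CPM (SD, n = 3), with a log2 fold change of 1.47 (SE 0.42), and 1.04 (SE 0.39) without 3posI. In TPM it ran from 13.5 to 43.2 in young and from 56.1 to 115 in old libraries, a separation shown by 6.26% of all genes.

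Ifi206 and Ifi213 share transcript words with each other. Ifi213 was at 14.4, 7.52, 9.67 and 29.96 CPM in young and 22.3, 54.1 and 26.7 CPM in old libraries. Ifi206 was at 17.1, 8.28, 10.3 and 34.6 CPM in young and 37.6, 41.99 and 28.5 CPM in old libraries. In both genes young 29C reached the level of the old libraries and the groups overlapped. The log2 fold change was 1.16 (SE 0.49) for Ifi213 and 1.04 (SE 0.44) for Ifi206, or 0.67 (SE 0.47) and 0.91 (SE 0.49) without 3posI, and 1.71 and 1.60 without young 29C. Ifi214 was scarce, with 0.95, 0.40, 0.94 and 3.20 CPM in young and 2.35, 2.02 and 2.38 CPM in old libraries. Its highest value was in a young library, and its log2 fold change of 0.71 (SE 0.61) was 1.55 without young 29C, 0.41 without young 18C and 0.78 without old 3posI.

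Ifi204, the STING-linked sensor, was among the most abundant members. It had 123, 86.7, 119.9 and 192 CPM in young and 175, 263 and 173 CPM in old libraries. Young 29C lay above old 2posI and 4posI, and the log2 fold change was 0.64 (SE 0.27), or 0.42 (SE 0.27) without 3posI. Ifi207 had 129.8, 70.5, 196 and 166 CPM in young and 122, 276 and 141 CPM in old libraries. The ages overlapped almost fully: its log2 fold change of 0.35 (SE 0.38) became -0.09 (SE 0.34) without 3posI.

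Aim2, the inflammasome sensor, went the other way. It had 45.8, 50.8, 38.3 and 50.6 CPM in young and 26.4, 28.8 and 45.2 CPM in old libraries, so old 4posI overlapped the young range while the other old libraries lay below it. The log2 fold change was -0.47 (SE 0.20), and -0.37 (SE 0.22) without 3posI. In TPM the groups were apart: Aim2 was at 54.7 to 60.3 TPM in young and at 20.1, 26.5 and 52.6 TPM in old libraries, below every young library as in 11.2% of all genes. The gap between scales goes with its effective length, 988 to 1213 bases in young and 1223 to 1607 bases in old libraries, that is, with how RSEM spread the reads over the 7 annotated Aim2 transcripts. With effective length as an offset the log2 fold change was -0.77.

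**Figure D3:**
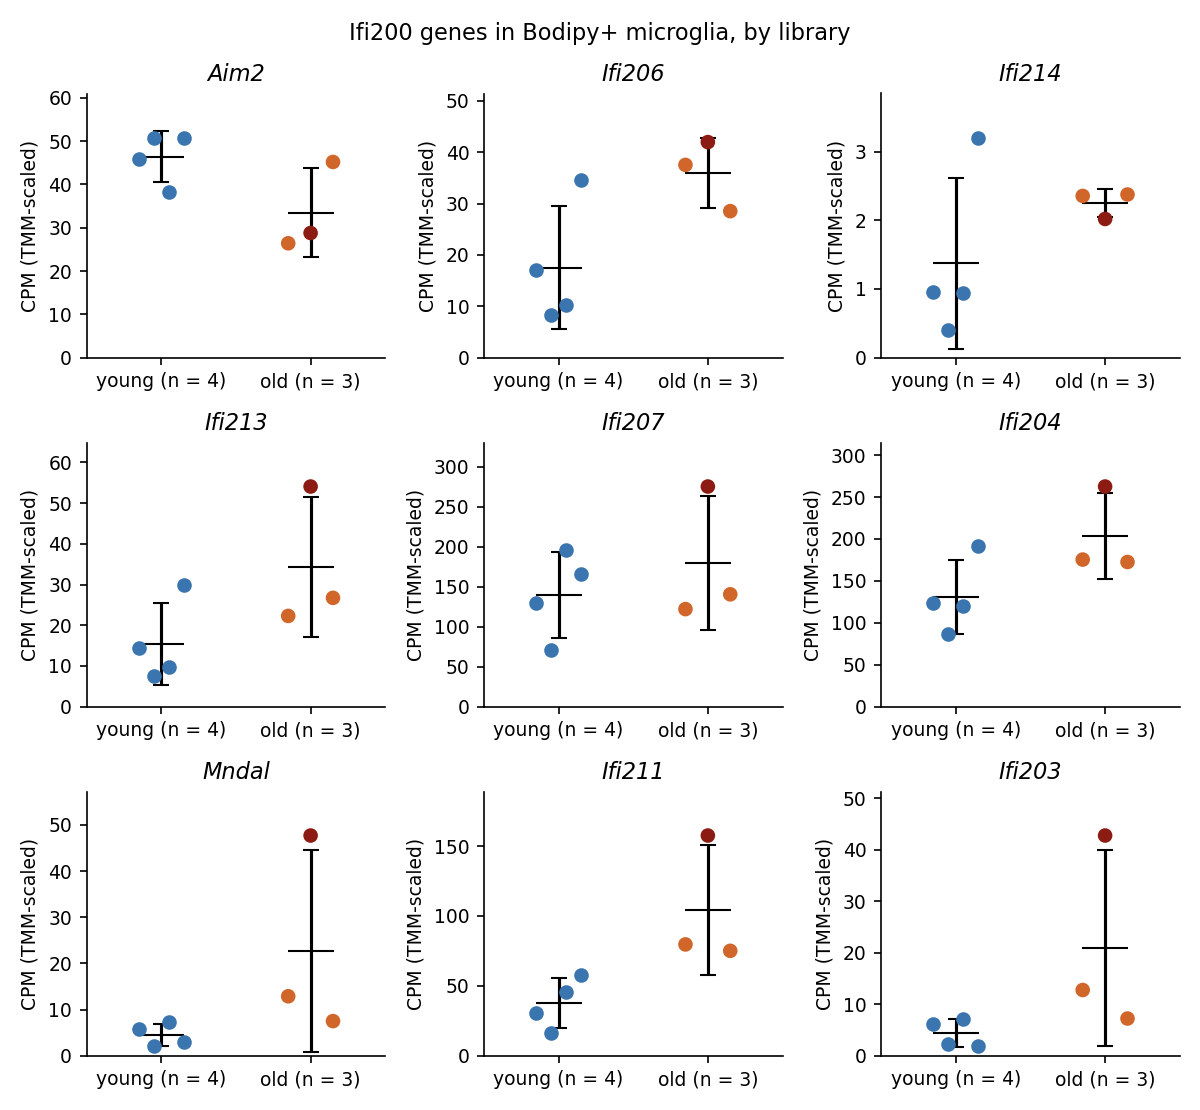
TMM-scaled CPM of the 9 members, 1 point per library, young in blue, old in orange and old 3posI in dark red; black marks are the mean ± SD (n = 4 young, n = 3 old). Ifi211, Mndal and Ifi203 had no overlap between the ages, 3posI was highest in 7 of the 9 members, and Aim2 was lower in old libraries.

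Many members had the same libraries at either end of their ranking, though not all did. Members also share reads, and how much that adds to the likeness was not tested. Old 3posI was the highest of all 7 libraries in 7 of 9 members (not Ifi214 and Aim2), and young 18C was the lowest in 7 of 9 (not Ifi203 and Aim2). Within the young group 29C was highest in 5 members and 23C in 3, but 29C was the lowest of all 7 libraries in Ifi203. The average member, centred over the libraries on the log2 CPM scale, stood at -0.33, -1.24, -0.32 and 0.02 in the young libraries and at 0.37, 1.22 and 0.27 in the old.

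**Figure D4:**
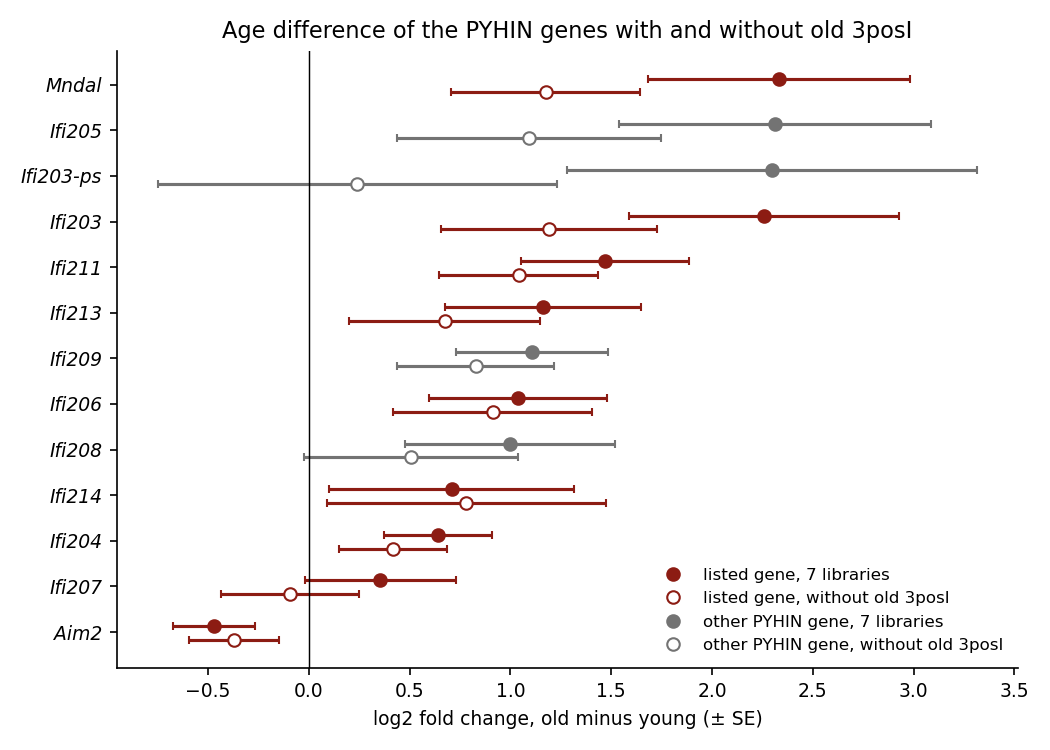
Log2 fold change between old and young libraries with its standard error for 13 PYHIN genes, with all 7 libraries (filled) and without old 3posI (open). Without 3posI the estimates of Mndal and Ifi203 were 1.17 and 1.19 in place of 2.33 and 2.26, and Ifi207 turned from 0.35 to -0.09.

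Levels can be compared between genes in TPM. In young libraries Ifi204 was highest (83.3 ± 24.0 TPM, SD, n = 4), followed by Aim2 (58.6 ± 2.62) and Ifi207 (56.5 ± 21.3), then Ifi211 (29.7 ± 13.2), Ifi213 (15.9 ± 11.1), Ifi206 (7.96 ± 5.04), Mndal (5.36 ± 3.09), Ifi203 (4.19 ± 2.51) and Ifi214 (0.86 ± 0.73). The ranges of neighbours in this order overlapped in every case among the members. In old libraries Ifi204 (121 ± 28.3 TPM, SD, n = 3) was followed by Ifi211 (77.6 ± 32.7) and Ifi207 (68.0 ± 30.3), and Aim2 (33.1 ± 17.2) stood level with Ifi213 (33.3 ± 16.3).

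The make-up of the family differed as well. Aim2 supplied 21.7% ± 6.66 (SD, n = 4) of the summed TPM of all 14 PYHIN genes in young libraries, between 16.1% and 31.1%, and 8.23% ± 5.12 (SD, n = 3) in old libraries, where the 3 values were 6.38%, 4.30% and 14.01%. Ifi211 supplied 9.97% ± 2.49 in young and 17.6% ± 1.14 in old libraries, from 6.97% to 12.4% and from 16.4% to 18.6%. Neither share overlapped between the ages, and how often such a separation occurs over all genes was not taken for shares. The shares are parts of 1 total, so that of Aim2 also falls when other members rise. They also depend on the effective lengths behind TPM, and in CPM Aim2 overlapped between the ages. Ifi204 held 29.1% ± 2.18 and 28.7% ± 3.43. The summed TPM itself was 277, 194, 300 and 373 in young and 315, 618 and 376 in old libraries, overlapping between the ages.

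**Figure D5:**
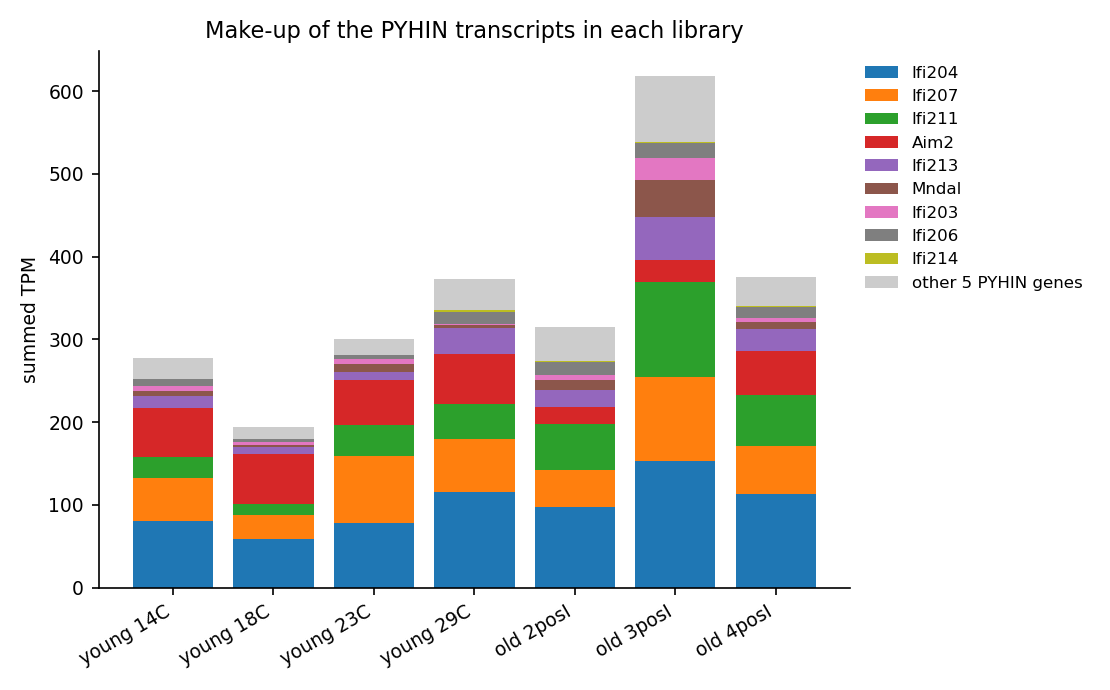
Stacked TPM of the PYHIN genes in each library. The total was 618 TPM in old 3posI and 194 to 376 TPM in the other 6 libraries, and the Aim2 segment was 20.1 to 52.6 TPM in old and 54.7 to 60.3 TPM in young libraries.

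Because reads are divided within blocks of like genes, the blocks were also summed, a step chosen after the data were seen. Reads shared with genes outside the family, as for Ifi206 and Ifi207, are not gathered by these sums. The sum of Ifi206, Ifi208 and Ifi213 had a log2 fold change of 1.09 (SE 0.45), that of Ifi209 and Ifi214 one of 1.09 (SE 0.38), and the sum of Ifi203, Ifi203-ps, Ifi204, Ifi205, Ifi207, Ifi211 and Mndal one of 0.77 (SE 0.34). Without 3posI these were 0.77, 0.83 and 0.35. All 14 PYHIN genes summed to 423, 272, 468 and 621 CPM in young and 588, 1075 and 578 CPM in old libraries, with a log2 fold change of 0.75 (SE 0.31), or 0.39 (SE 0.28) without 3posI. Young 29C thus exceeded old 2posI and 4posI for the family as a whole.

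The other PYHIN genes of the locus, which were not among the listed members, were tested. They share reads with the members, and this list too was chosen with earlier results of these data known. Their tests are therefore not independent of the members or of the choice. All 4 that passed the count filter had positive estimates, and 0 passed the threshold in edgeR, 0 in limma-voom and 1, Ifi209, in DESeq2. In edgeR 2 were higher at an unadjusted p under 0.05, as were 10.1% of all genes. Ifi205, whose protein p205 acts on expression of the ASC adaptor, had 1.54, 0.69, 3.98 and 4.30 CPM in young and 7.78, 28.03 and 3.48 CPM in old libraries. Its groups overlapped through 4posI, with a log2 fold change of 2.31 (± 0.78 SE, edgeR adjusted p = 0.169), or 1.09 (adjusted p = 0.424) without 3posI. Ifi209 had 24.2 to 69.8 CPM in young and 64.8, 79.1 and 117.6 CPM in old libraries, a log2 fold change of 1.11 (± 0.38 SE, edgeR adjusted p = 0.173), or 0.83 without 3posI. Ifi208 had a log2 fold change of 1.00 (± 0.52 SE, edgeR adjusted p = 0.34), which was 0.51 without 3posI, and the pseudogene Ifi203-ps, at 0.06 to 2.25 CPM in all, one of 2.30 (± 1.02 SE, edgeR adjusted p = 0.267), which was 0.24 without 3posI. Ifi202b, which encodes a HIN protein without a pyrin domain that inhibits AIM2, had at most 0.067 CPM in any library and was not tested.

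Genes next to the locus were low or silent. Of the 3 protein-coding genes on each side, Ackr1, an atypical chemokine receptor, had 2.77 ± 2.09 CPM (SD, n = 4) in young and 2.87 ± 2.40 CPM (SD, n = 3) in old libraries, with a log2 fold change of 0.04 (± 0.95 SE, edgeR adjusted p = 0.987). Cadm3, whose span overlaps that of Aim2 on the other strand, had no more than 21 reads in any library (adjusted p = 0.814, edgeR), and Olfr433 no more than 12 (adjusted p = 0.924, edgeR). Mptx2, Olfr432 and Olfr430 had 0 to 3 reads and were not tested.

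The pathways around the sensors were followed with a list for each, and 0 of their genes passed the threshold in edgeR or limma-voom, while 7 of the 63 tested did in DESeq2, which called 7.99% of all genes (Samhd1, Jak2, Tyk2, Rsad2, Oas2, Bst2 and Oas1a). Over all 17559 genes, 3326 had an unadjusted p under 0.05 in edgeR, 10.1% higher and 8.79% lower in old mice. The counts for each list below stand beside that share. Partners of AIM2 in the inflammasome (8 tested, 0 at an unadjusted p under 0.05) had a median log2 fold change of 0.17, with 7 estimates above 0. Il18 was at 20.8 ± 4.82 CPM (SD, n = 4) in young and 26.4 ± 4.34 CPM (SD, n = 3) in old libraries, a log2 fold change of 0.35 (± 0.20 SE, edgeR adjusted p = 0.377). Il1b had one of -0.51 (± 0.34 SE, edgeR adjusted p = 0.439), which was -1.02 (adjusted p = 0.0975) without 3posI and -0.20 without 2posI. Ninj1, which ruptures the membrane of dying cells, had one of 0.74 (± 0.43 SE, edgeR adjusted p = 0.385) that was -0.01 without 3posI.

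Genes of the cGAS-STING route (12 tested, 1 at an unadjusted p under 0.05) had a median log2 fold change of 0.07, with 8 above 0. Zbp1, a sensor of Z-form nucleic acid, had the smallest p, with 0.89 (± 0.35 SE, edgeR adjusted p = 0.222), or 0.60 without 3posI. Zcchc3, a cofactor of cGAS, had -0.87 (± 0.38 SE, edgeR adjusted p = 0.265), and Mb21d1, which encodes cGAS, -0.30 (± 0.21 SE, edgeR adjusted p = 0.469). The enzymes that clear nucleic acid (8 tested, 2 at an unadjusted p under 0.05) had a median of 0.12, with 5 above 0. Samhd1, a dNTP hydrolase, had 53.04, 40.8, 48.03 and 64.2 CPM in young and 95.7, 135.7 and 73.4 CPM in old libraries. Its old libraries all lay above the young, as in 8.67% of all genes and in 1 of the 8 tested here. The log2 fold change was 0.98 (± 0.22 SE, edgeR adjusted p = 0.0838), or 0.71 without 3posI. The DNA exonuclease Trex1 had 0.55 (± 0.18 SE, edgeR adjusted p = 0.167) and Rnaseh2a 0.17 (± 0.12 SE, edgeR adjusted p = 0.466).

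Of 11 interferon ligands, 6 were listed at 0 in every library (Ifna1, Ifna6, Ifne, Ifnl2, Ifnl3 and Ifng). Ifnb1 had 24, 17, 12 and 31 reads in young and 14, 17 and 75 reads in old libraries, the highest in 4posI and not in 3posI. Its log2 fold change was 0.88 (± 0.62 SE, edgeR adjusted p = 0.476), and -0.08 without 4posI. Ifna2 had 2 reads in young 14C, 11.6 in old 4posI and 0 elsewhere (adjusted p = 0.425, edgeR). These were the only ligands that passed the count filter.

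Among 15 interferon receptors and transducers, 4 had an unadjusted p under 0.05, 7 were above 0 and the median was -0.02. The kinase Tyk2, which docks on the type I interferon receptor, had 53.9, 60.5, 55.6 and 53.1 CPM in young and 28.01, 39.6 and 34.98 CPM in old libraries. No old library reached the young range. The share of all genes with that order was taken only in TPM, where it was 11.2%. The log2 fold change of Tyk2 was -0.71 (± 0.14 SE, edgeR adjusted p = 0.0591), or -0.82 (adjusted p = 0.0447) without 3posI, where it passed the threshold. Jak2, its counterpart on the interferon gamma receptor, had 15.2 ± 2.23 CPM (SD, n = 4) in young and 26.2 ± 5.12 CPM (SD, n = 3) in old libraries, a log2 fold change of 0.79 (± 0.18 SE, edgeR adjusted p = 0.0801). Irf7, the transcription factor that amplifies interferon production, had one of 1.10 (± 0.42 SE, edgeR adjusted p = 0.205), or 0.73 without 3posI.

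Of 18 interferon-stimulated antiviral genes, 17 had positive estimates, 9 had an unadjusted p under 0.05 and the median log2 fold change was 0.78. Without 3posI 17 of 18 were above 0 and the median was 0.49, beside 48.1% of all genes above 0. Bst2, which tethers budding virus to the cell surface, had 0.72 (± 0.20 SE, edgeR adjusted p = 0.128). Oas1a, an activator of RNase L, had 0.97 (± 0.28 SE, edgeR adjusted p = 0.131), and Rsad2, which encodes viperin, 1.24 (± 0.40 SE, edgeR adjusted p = 0.163), or 0.72 without 3posI. In Rsad2 the libraries stood at 36.3, 21.9, 43.5 and 64.3 CPM in young and 60.3, 157.0 and 76.1 CPM in old mice, with 18C lowest and 3posI highest as in the sensors.

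The genes outside the locus that followed the members most closely were found by the root mean square difference between centred log2 CPM profiles over the 7 libraries. Among 8137 genes of at least 10 CPM the median difference from the average member was 0.72, and the nearest were Ly6a (0.17), Mx1 (0.20), Rsad2 (0.21), Slfn5 (0.23), Isg15 (0.23), Zbp1 (0.24), Inf2 (0.24), Samhd1 (0.24), Sp100 (0.25) and Ifit1 (0.25). Of the members themselves Ifi204 (0.27) and Ifi211 (0.31) were nearest to the average. Aim2 (0.98), Ifi203 (0.95) and Mndal (0.81) were farthest, each farther from it than the median gene. The measure counts the size of swings as well as their direction. A gene that did not change between libraries would stand at 0.70, the size of the average profile itself. Mndal and Ifi203 were highest in 3posI, as the average member was, whereas Aim2 was highest in young 18C. The list leans on the libraries at either end: only 2 of the 10 genes were again among the nearest 10 without young 18C, and 2 without old 3posI.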

How the data were processed

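RNA of 7 FACS-sorted Bodipy+ microglia samples was amplified with a low-input Smart-seq2 protocol (non-stranded, no molecular identifiers named). According to the methods and the submitters' processing notes, the authors checked reads with FastQC 0.11.5, aligned them with STAR to GRCm38 and quantified genes with RSEM on GENCODE m15; no version is stated for STAR or RSEM. The deposited files hold expected counts, which the authors obtained by dividing reads among transcripts, and TPM and FPKM values normalized by the authors for depth and length. FPKM was not used.

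The expected counts were rounded. A count over 10 in any library kept a gene (18173 genes), and 614 on chromosomes X, Y and M were left out, after the authors' filter. Groups were compared with TMM factors (0.952 to 1.05) and edgeR 4.0.16 quasi-likelihood tests in R 4.3.3, with Benjamini-Hochberg adjustment over 17559 genes and a threshold of 0.05; the biological coefficient of variation was 37.2%. Alternatives were limma-voom 3.58.1, DESeq2 1.42.0, RLE and upper-quartile factors, other filters, an effective length offset and leaving out each library. TPM differences used log2(TPM + 0.1). CPM are TMM-scaled. Scripts were tested on simulated data. Replicates carry separate animal codes in the labels.

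Members and gene lists were chosen with earlier results of these data known. Genes named are the members, the other PYHIN genes of the locus, 3 protein-coding neighbours on each side, in each list those past the threshold and the 3 with the smallest p, and the 10 most alike in pattern; the genes called by DESeq2 were named after their values were seen. Coordinates come from GENCODE vM21, promoter sequences from RefSeq (GRCm38.p6). The methods and the labels name different RNA extraction kits.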

Additional observations from a re-analysis of the deposited data

Results flagged for a closer look

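In 4 cases the young group had 1 library far from the others by Dixon's criterion for 4 samples, out of 64 groups examined, of which chance gives about 1 in 20. Aim2 stood at 54.7 TPM in young 23C against 59.6 to 60.3 TPM in the other young libraries (gap over range 0.878). Bst2 was at 353 CPM in 29C against 206 to 228 CPM (0.85), and Rnaseh2a at 23.6 CPM in 23C against 19.7 to 20.2 CPM (0.888). Ifna2 had 0.043 CPM in 14C and 0 in the rest (1.0), which rests on 2 reads.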

How the results depend on the processing

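No paired analysis was possible because the labels give animal codes that the age groups do not share. The number of genes past the threshold, 141, was 1403 in DESeq2, 288 with no filter on low counts and 1 to 159 with single libraries left out: 1 without young 14C, young 18C or old 2posI, 2 without young 29C, 14 without young 23C, 85 without old 4posI and 159 without old 3posI. With an effective length offset 114 were higher and 82 lower, in place of 100 and 41. Of the 9 members, 8 had positive estimates under all settings run except without old 3posI, where 7 had. No member passed the threshold in edgeR or limma-voom under any setting, and 3 did in DESeq2. The other PYHIN genes past the threshold numbered 0, and 1 in DESeq2. Pathway genes past it numbered 0, 7 in DESeq2, 2 with no filter (Tyk2 and Samhd1) and 0 to 1 with single libraries left out (Tyk2, without old 3posI). The summed family changed by 0.39 to 0.95 (log2) with single libraries left out, from 0.75. Of the 10 genes nearest in pattern, 6 remained with the median over members, and 2 to 9 with single libraries left out (2 without young 18C or old 3posI, 5 without young 23C, 6 without young 29C). Estimates that changed sign were Ifi207 (-0.0946 without old 3posI, to 0.57 without old 2posI; in TPM -0.0725, or -0.0155 without young 18C, to 0.54), Ninj1 (-0.0114 without old 3posI, to 1.04) and Ifnb1 (-0.0818 without old 4posI, to 1.19). The cause of these changes was not tested. Counts of Ifi214, Ifi203-ps, Ifi202b and the interferon ligands are too low for firm statements.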
